A study of Homo sapiens with 24 samples.

Results

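Cells of the human colorectal cancer line HCT116 were exposed for 72 h to the higher doses of 2 DNA methyltransferase inhibitors or to solvent, and their RNA was measured on Affymetrix HG-U133 Plus 2.0 arrays. The treated side held 4 arrays chosen by their titles, 2 from cells given decitabine (DAC) at 5 µM and 2 from cells given G668684 at 7 µM. The control side held the 4 arrays of cells given dimethyl sulfoxide (DMSO). These 8 of the 24 arrays of the series were compared across 18055 genes. G668684 is a compound known here by its code and by the word ester in the sample titles, and no structure is given for it. The 2 compounds were not given at the same dose, so the pooled value is their average and values for each compound are set side by side without a test between them. Arrays of cells given DAC at 120 nM and G668684 at 150 nM, 2 each, serve as the lower doses. Whether replicates were grown as separate cultures is not stated in the labels. The p-values therefore rest on the scatter among replicates alone, taken over all 24 arrays, and that scatter may be technical.

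Decitabine is a deoxycytidine analogue that is phosphorylated in the cell and built into DNA, where it traps DNA methyltransferases as they act on the analogue. Methylation of the CpG dinucleotides near a start site is then not copied at replication, and genes that such methylation keeps silent can be transcribed. Genes of the germ line and the cancer-testis antigens are known for this form of silencing in somatic cells. Trapped enzyme is also a lesion in DNA, and cells with working p53, among them HCT116, are known to respond to such lesions with p53 target genes and slower division.

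Levels are log2 intensities, so a step of 1 is a factor of 2, and differences are the mean of the 4 treated arrays minus the mean of the 4 DMSO arrays, with the standard error (SE) from a limma fit. Genes counted as called where the p adjusted by Benjamini-Hochberg over all 18055 genes was under 0.05. The number of arrays limits the precision, and the median 95% interval of a difference reached 0.169 to each side. No detection calls are held in the values used, so a gene that lay under the filter level of 5 in DMSO cells has a difference of no settled size.

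The 4 treated arrays correlated at 0.9959 to 0.9981 with each other over the tested genes. The first DAC and first G668684 arrays correlated at 0.9981, above the 2 DAC arrays at 0.9975 and the 2 G668684 arrays at 0.9959. Treated and DMSO arrays correlated at 0.9664 to 0.9724. The DMSO arrays formed pairs, with 0.9967 between replicates 1 and 2, 0.9969 between replicates 3 and 4 and 0.9904 to 0.9912 across the pairs. The 3 prime probe set of beta-actin minus its 5 prime one, which tracks RNA integrity, lay between 0.03 and 0.14 on treated arrays and between -0.03 and 0.24 on DMSO arrays. Of 16 markers of a colon epithelial line, EPCAM averaged 12.90 in treated cells and 12.93 in DMSO cells, while the intestinal factor CDX2 averaged 7.24 in treated cells and 7.06 in DMSO cells, below the median DMSO level of all genes at 7.62. CDX2 was called higher without DMSO replicate 1 (adjusted p = 0.0092). The structural gene VIL1 was also at that height, with 7.41 in treated cells and 7.40 in DMSO cells.

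Against DMSO, 7011 genes were called, which is 38.8% of those tested. Of these, 3734 genes (20.7%) were higher and 3277 (18.2%) lower in treated cells. All 4 treated arrays lay above all 4 DMSO arrays in 18.7% of genes and below them in 16.1%. The large changes ran mostly one way. At least 4-fold, 115 genes (0.637%) rose and 1 gene (0.00554%) fell, and at least 2-fold, 444 genes (2.46%) rose and 116 (0.642%) fell. The genes that rose at least 4-fold had a median DMSO level of 5.76, and 37 of the 115 lay under 5 in DMSO cells, so that they passed the filter only through treated arrays. The genes that fell at least 2-fold had a median DMSO level of 9.35. The median difference of all genes was -0.045, and the median size of a difference, whatever its sign, was 0.155.

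**Figure D1:**
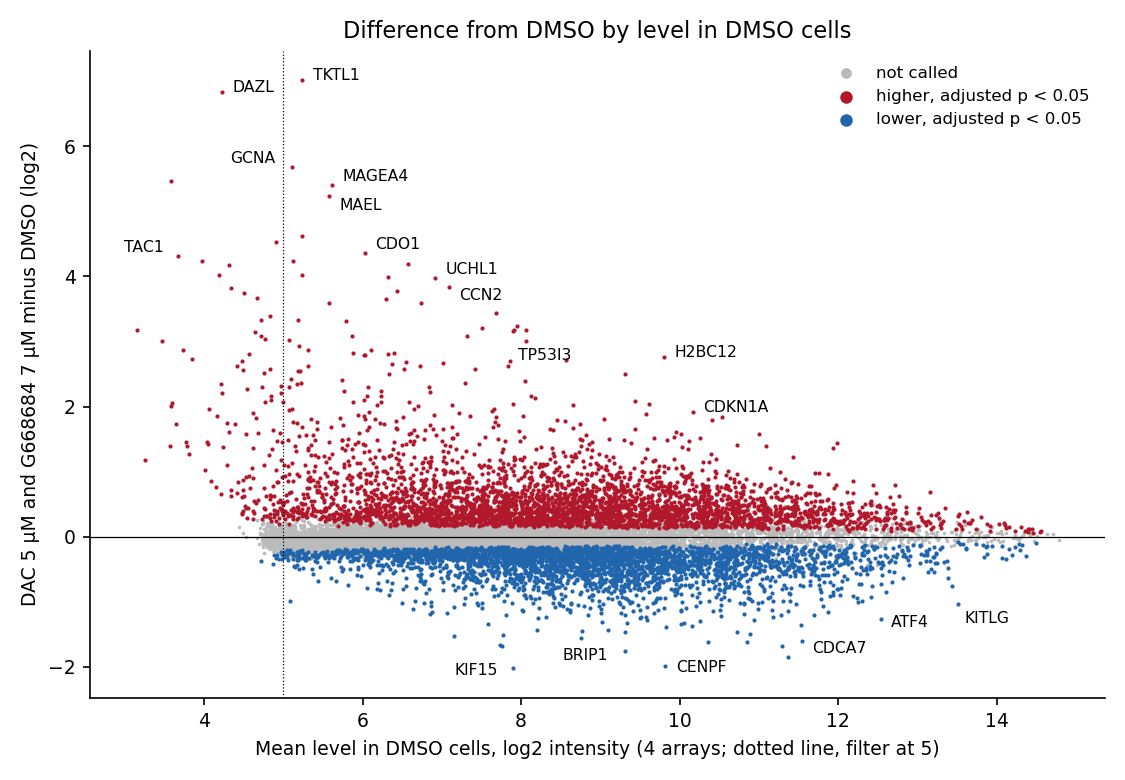
Difference between treated cells (DAC 5 µM and G668684 7 µM, 4 arrays) and DMSO cells (4 arrays) on the log2 scale, against the mean log2 intensity in DMSO cells, for 18055 genes. The largest rises, TKTL1 and DAZL, stand at low DMSO levels, and the falls reach -2.02 at KIF15, at middle and high DMSO levels.

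The largest rise was that of TKTL1, an X-linked transketolase-like gene whose transcript is best known from testis. It read 12.24 and 12.25 on the DAC arrays and 12.19 and 12.32 on the G668684 arrays, against 5.33, 4.70, 5.54 and 5.38 on the DMSO arrays. DAZL, a germ cell RNA-binding protein, read 11.11 and 10.88 with DAC and 11.23 and 11 with G668684, against 3.99, 4.51, 4.19 and 4.23 with DMSO. GCNA, a nuclear protein of germ cells, read 10.70 and 10.88 with DAC and 10.63 and 10.94 with G668684, against 4.89, 5.47, 5.2 and 4.89 with DMSO. In each of these genes the lowest treated array stood over 5 log2 units above the highest DMSO array, and the treated arrays lay closer together than the DMSO arrays. The difference was 7.01 ± 0.128 for TKTL1 (SE, adjusted p = 1e-18) and 6.83 ± 0.152 for DAZL (adjusted p = 1.9e-17), though DAZL lay under the filter in DMSO cells. Both probe sets of TKTL1 rose, the smaller by 5.2.

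The promoter windows of these genes are shown because CpG sites near the start are where methylation would be lost. Each runs from 250 bases before to 50 bases after the start, 5′ to 3′ on the gene's strand, from RefSeq on GRCh38.p14, with the CpG sites in capitals. TKTL1 lies at chrX:154295545-154295844 on the plus strand and has 18 CpG sites, DAZL at chr3:16605374-16605673 on the minus strand and has 33, and GCNA at chrX:71578187-71578486 on the plus strand and has 21. The 27305 genes of that table had a median of 13 CpG sites. Only 78.3% of tested genes had a window, so medians of tested genes leave part of them out. Those with a window had a median of 23, which is above TKTL1 and GCNA and below DAZL. Among the genes that rose at least 4-fold the median was 16. Methylation itself was not measured on these arrays.
TKTL1: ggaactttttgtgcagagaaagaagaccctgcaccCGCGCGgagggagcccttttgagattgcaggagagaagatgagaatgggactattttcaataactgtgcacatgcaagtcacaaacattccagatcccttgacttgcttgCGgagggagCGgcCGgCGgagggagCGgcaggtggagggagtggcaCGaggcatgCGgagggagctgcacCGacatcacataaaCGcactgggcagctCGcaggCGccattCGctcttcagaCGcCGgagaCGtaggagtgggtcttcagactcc
DAZL: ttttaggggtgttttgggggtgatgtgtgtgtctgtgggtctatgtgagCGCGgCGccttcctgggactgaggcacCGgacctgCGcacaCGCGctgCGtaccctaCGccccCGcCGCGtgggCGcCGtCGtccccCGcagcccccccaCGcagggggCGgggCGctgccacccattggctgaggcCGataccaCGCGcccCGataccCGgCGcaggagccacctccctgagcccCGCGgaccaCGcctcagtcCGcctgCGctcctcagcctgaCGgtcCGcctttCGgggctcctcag
GCNA: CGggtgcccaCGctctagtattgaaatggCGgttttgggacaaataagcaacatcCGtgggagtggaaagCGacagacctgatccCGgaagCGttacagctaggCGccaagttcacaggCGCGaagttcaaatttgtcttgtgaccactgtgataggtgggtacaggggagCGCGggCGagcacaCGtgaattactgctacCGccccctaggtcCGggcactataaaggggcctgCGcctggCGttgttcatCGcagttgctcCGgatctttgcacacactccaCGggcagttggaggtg

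Germ cell and meiosis genes rose as a group. Of 42 tested members, 26 (61.9%) were higher and 2 lower, against 20.7% and 18.2% of all genes. The median difference was 0.85 against -0.045. Only 42 of the 53 members with a probe set passed the filter. Of the 26 that rose, 5 averaged under the filter in DMSO cells, and treated arrays may have brought them into the test. The filter can therefore raise the share of members that rose. MAEL, which acts in the piRNA pathway that silences transposons, averaged 10.82 ± 0.097 in treated cells and 5.58 ± 0.110 in DMSO cells (SD, n = 4 each). SYCP3, a part of the synaptonemal complex, averaged 10.31 ± 0.069 in treated cells and 6.32 ± 0.282 in DMSO cells, and rose by 3.99 ± 0.149. RBM46, an RNA-binding protein of germ cells, averaged 6.48 in treated cells and 3.48 in DMSO cells, and its DMSO level was under the filter. The members that fell were DMC1, the meiotic recombinase, by 0.32, and SYCE2, another synaptonemal complex part, by 0.25. The call of SYCE2 was lost when DAC replicate 2, G668684 replicate 2, DMSO replicate 1 or DMSO replicate 4 was left out.

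The cancer-testis list, antigens expressed in testis and in some tumours, had 32 of 49 tested members higher (65.3%) and 4 lower (8.16%). The median difference was 0.64. Of the 32 that rose, 6 averaged under the filter in DMSO cells, so the filter can raise this share too. MAGEA4 read 11.02 and 11.13 with DAC and 10.99 and 10.95 with G668684, against 5.69, 5.60, 5.72 and 5.47 with DMSO, a difference of 5.40 ± 0.132. SSX1 averaged 10.76 ± 0.061 in treated cells and 6.57 ± 0.157 in DMSO cells. MAGEA8 rose by 4.02 ± 0.151 and MAGEA1 by 3.77 ± 0.119, while MAGEB6 averaged 6.33 in treated cells and 3.15 in DMSO cells. MAGEA and SSX genes have near-identical copies whose transcripts these probes may share, so the share of each copy is uncertain. The 4 members that fell were TTK, a kinase of the spindle checkpoint, by 0.96, PBK, a mitotic kinase, by 0.93, SPA17, a sperm protein, by 0.56, and OIP5, a centromere protein, by 0.40. TTK, PBK and OIP5 are known from dividing cells as well as from testis.

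The genes that rose most were often X-linked. Of the 115 genes that rose at least 4-fold, 26 (22.6%) lie on the X chromosome, against 623 of the 18023 tested genes with a known chromosome (3.46%). Of the 115 genes, 37 averaged under the filter in DMSO cells, against 2.19% of all tested genes, so the filter can affect this share. Of the 26 X-linked genes, 12 are on the cancer-testis list, 2 on the germ cell list and 12 on neither. The cancer-testis genes here include MAGEA and SSX copies whose transcripts the probes may share. TKTL1, FMR1NB and BEX4 are among those on neither list. FMR1NB, a testis antigen encoded next to FMR1, averaged 9.04 in treated cells and 3.58, under the filter, in DMSO cells. BEX4 averaged 8.21 ± 0.128 in treated cells and 4.19 ± 0.255, also under the filter, in DMSO cells. Of the 49 tested cancer-testis genes, 31 lie on X (63.3%).

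Among pluripotency genes, 10 of 28 tested members rose (35.7%) and 2 fell (7.14%). ZFP42, a zinc finger protein of embryonic stem cells, read 9.89 and 9.79 with DAC and 9.89 and 9.86 with G668684, against 5.32, 5.30, 5.25 and 5.09 with DMSO. LIN28B, which blocks maturation of let-7 microRNAs, averaged 9.36 ± 0.073 in treated cells and 5.13 ± 0.255 in DMSO cells. DPPA5, a marker of pluripotent cells, rose by 2.36 ± 0.077, and L1TD1, a protein derived from a LINE-1 element, by 1.75 ± 0.155. The core factors NANOG and SOX2, named after their values were seen, were not called, at -0.04 (adjusted p = 0.79) and -0.12 (adjusted p = 0.31). Testis forms of metabolic enzymes were called less evenly: TKTL2 rose by 1.26 ± 0.111 and COX7B2, a subunit form of cytochrome oxidase, by 1.23 ± 0.081, which with TKTL1 made 3 of 15 tested members that rose (20%), while 2 fell (13.3%). These shares are near or below those of all genes, 20.7% and 18.2%. COX8C, another testis form of a cytochrome oxidase subunit that was not on the list, averaged 9.44 in treated cells and 4.91, under the filter, in DMSO cells.

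Genes with methylated promoters in colon cancer gave a mixed picture, with 25 of 69 tested members higher (36.2%) and 6 lower (8.7%). CDO1, cysteine dioxygenase, read 10.25 and 10.40 with DAC and 10.44 and 10.44 with G668684, against 6.02, 5.98, 6.13 and 5.98 with DMSO. TAC1, the precursor of substance P, read 7.90 and 8.05 with DAC and 8.01 and 8 with G668684, against 3.91, 3.69, 3.52 and 3.57 with DMSO. The groups of both genes were far apart, and 1 other probe set of CDO1 gave -0.03. UCHL1, a ubiquitin hydrolase of neurons, averaged 10.88 ± 0.085 in treated cells and 6.91 ± 0.327 in DMSO cells on 1 probe set and differed by -0.12 on the other. TFPI2, a protease inhibitor, rose by 3.31 ± 0.125, and SPARC, a secreted matrix protein, by 3.58 ± 0.171. MGMT, which removes alkyl groups from guanine, went the other way: 7.18, 7.33, 7.01 and 7.28 in treated cells against 7.81, 8.11, 7.93 and 7.83 in DMSO cells, a fall of 0.72. RASSF1, a scaffold of the Hippo pathway, fell by 0.28 (adjusted p = 0.0057). The median of the list was 0.03.

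**Figure D2:**
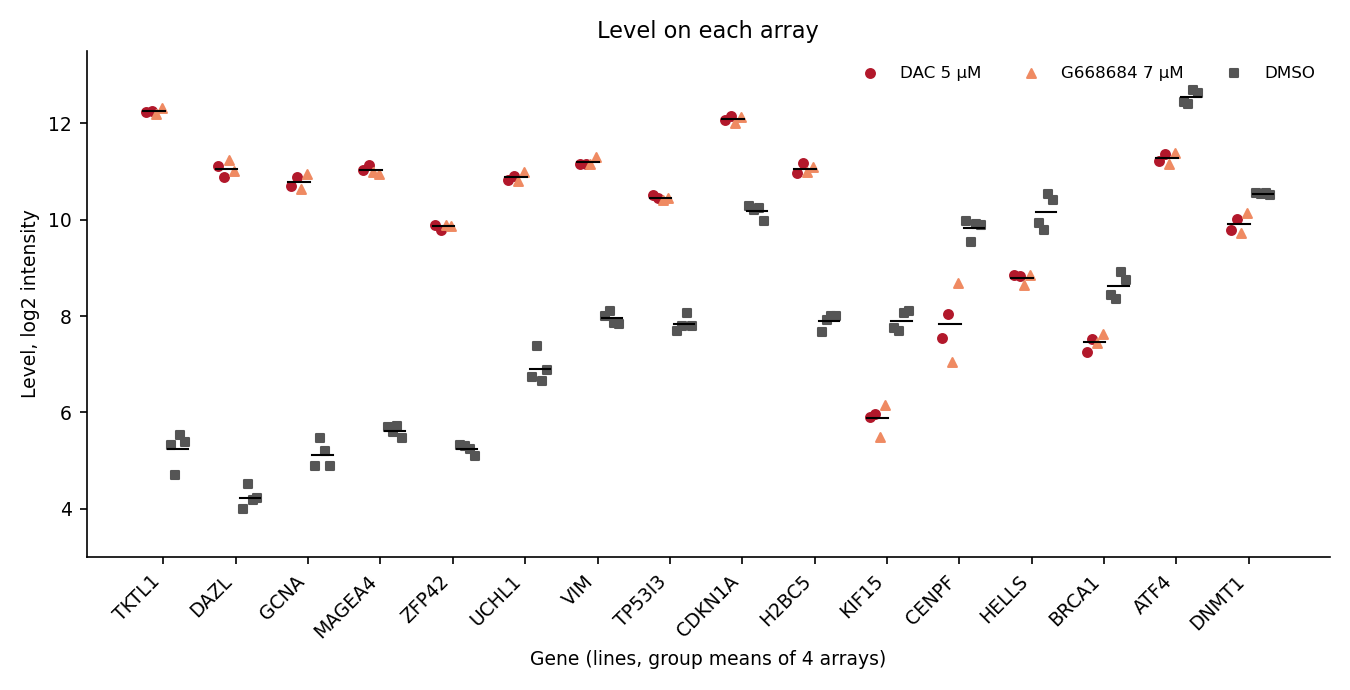
Log2 intensity on each array for 16 genes, with DAC 5 µM (circles) and G668684 7 µM (triangles) left of DMSO (squares) for each gene, and lines at the means of 4 arrays. The groups do not overlap in any of the 16 genes, and CENPF shows the widest treated range, 7.05 to 8.68.

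Targets of p53 rose in most cases: 46 of 69 tested members were higher (66.7%) and 4 lower (5.8%), with a median difference of 0.51. TP53I3, a quinone oxidoreductase induced by p53, read 10.50 and 10.45 with DAC and 10.41 and 10.44 with G668684, against 7.68, 7.79, 8.06 and 7.80 with DMSO. CDKN1A, the inhibitor of cyclin-dependent kinases also called p21, read 12.07 and 12.14 with DAC and 12 and 12.13 with G668684, against 10.29, 10.19, 10.23 and 9.97 with DMSO. Their differences were 2.62 ± 0.070 (adjusted p = 2.6e-16) and 1.92 ± 0.059 (adjusted p = 2.3e-15), with no overlap of the groups. TIGAR, which lowers glycolytic flux, rose by 2.08 ± 0.112, the kinase PLK2 by 1.81 ± 0.126 and the antiproliferative TP53INP1 by 2.15 ± 0.085. Some death genes rose as well: the receptor FAS averaged 10.47 ± 0.017 in treated cells and 8.74 ± 0.151 in DMSO cells. PMAIP1 rose by 0.97, TNFRSF10B by 0.78 and BAX by 0.50. Of 29 tested genes of apoptosis execution, 10 were higher (34.5%) and 6 lower (20.7%), beside 20.7% and 18.2% of all genes. Lower ones included DFFB, by 0.75, and CASP2, by 0.565. The 5 probe sets of FAS ran from 0.02 to 2.11. Of the p53 targets 4 fell: KITLG, the ligand of the receptor KIT, by 1.03 and STEAP3, a metalloreductase, by 0.69. The others were the RNA sensor TLR3, by 0.50, and the cytokine LIF, by 0.21. LIF was no longer called without DAC replicate 1 (adjusted p = 0.11), G668684 replicate 1 (adjusted p = 0.15) or DMSO replicate 3 (adjusted p = 0.094). Other inhibitors of cyclin-dependent kinases were higher too, CDKN2B by 1.64 ± 0.137 and CDKN2D by 1.5 ± 0.076, the second on 1 probe set while its other gave 0.02.

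The genes of S phase fell almost throughout. Of 73 tested members 69 (94.5%) were lower and 0 higher, beside 18.2% lower in all genes, and the median difference was -0.68. PRIM1, the catalytic subunit of DNA primase, read 10.21 and 10.21 with DAC and 10.15 and 10.11 with G668684, against 11.43, 11.54, 11.54 and 11.62 with DMSO. HELLS, a chromatin remodeller that DNA methylation needs, read 8.86 and 8.82 with DAC and 8.64 and 8.86 with G668684, against 9.93, 9.78, 10.53 and 10.40 with DMSO. PRIM1 fell by 1.36 ± 0.051 and HELLS by 1.36 ± 0.175, and the wider error of HELLS goes with DMSO replicates 1 and 2 reading lower than 3 and 4. E2F8, a repressor of E2F targets, fell by 1.33, the licensing factor CDT1 by 1.28 and POLA1, the catalytic subunit of polymerase alpha, by 1.24. With DMSO replicates 1 and 2 alone 65 members were lower, and with replicates 3 and 4 alone 68.

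Genes of G2 and mitosis fell as broadly, with 81 of 90 tested members lower (90.0%), 1 higher and a median difference of -0.65. KIF15, a kinesin of the spindle, was the gene that fell at least 4-fold: 5.90 and 5.96 with DAC and 5.49 and 6.16 with G668684, against 7.75, 7.69, 8.06 and 8.10 with DMSO. CENPF, a kinetochore protein of late G2, read 7.55 and 8.05 with DAC and 7.05 and 8.68 with G668684, against 9.96, 9.53, 9.90 and 9.88 with DMSO. The groups did not overlap in either gene, but the treated arrays of CENPF were spread widely, with the second replicate of each compound above both first replicates. MKI67, the proliferation marker, had the same order, 8.06 and 8.64 with DAC and 7.59 and 8.74 with G668684, against 9.54, 9.31, 9.55 and 9.62 with DMSO. CENPE, a kinetochore motor, fell by 1.68 ± 0.149, SMC4, a condensin subunit, by 1.5 ± 0.124 and KIF11, the kinesin that parts the spindle poles, by 1.43 ± 0.159. The 1 member that was higher, the centromere protein CENPI, differed by 0.18 at an adjusted p of 0.049, and its call was lost when DAC replicate 2, G668684 replicate 2 or DMSO replicate 2, 3 or 4 was left out.

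The promoter windows of both groups were searched for motifs of cell cycle genes. Both strands of each window were searched. The CHR motif TTTGAA, known from genes expressed in G2 and mitosis, was in 48 of the 76 G2/M genes with a window (63.2%) and in 15.5% of all RefSeq promoters of that length. CCAAT was in 52 of the 76 G2/M windows (68.4%) and in 36 of the 63 S phase windows (57.1%), against 35.7% of all promoters. In the S phase list the E2F core TTCCCGC was in 23 of 63 windows (36.5%), against 6.55% of all promoters, and TTTGAA was in 3 (4.76%). TTCCCGC was in 10 of the G2/M windows (13.2%). Among tested genes with a window, TTTGAA was in 11.2%, CCAAT in 35.9% and TTCCCGC in 8.98%. A match is no evidence that a factor binds. KIF15 lies at chr3:44761544-44761843 and HELLS at chr10:94545538-94545837, both on the plus strand of GRCh38.p14 in RefSeq. Capitals mark 1 match each, TTTGAA in KIF15, as the reverse complement, and TTCCCGC in HELLS. A CCAAT in the HELLS window is not marked.
KIF15: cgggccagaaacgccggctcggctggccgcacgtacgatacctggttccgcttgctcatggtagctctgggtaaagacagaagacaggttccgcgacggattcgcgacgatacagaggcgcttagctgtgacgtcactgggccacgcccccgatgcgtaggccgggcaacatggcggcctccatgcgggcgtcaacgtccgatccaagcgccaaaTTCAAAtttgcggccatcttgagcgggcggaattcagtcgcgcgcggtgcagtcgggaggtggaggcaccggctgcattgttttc
HELLS: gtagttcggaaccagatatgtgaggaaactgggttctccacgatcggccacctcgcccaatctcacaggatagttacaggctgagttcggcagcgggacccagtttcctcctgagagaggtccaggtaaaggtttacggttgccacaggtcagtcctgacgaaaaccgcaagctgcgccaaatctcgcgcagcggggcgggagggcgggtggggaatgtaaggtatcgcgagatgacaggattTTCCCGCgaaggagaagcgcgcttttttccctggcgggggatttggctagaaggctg

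DNA repair genes were lower in 34 of 63 cases (54.0%) and higher in 5 (7.94%), with a median of -0.23. BRIP1, a helicase of the Fanconi pathway, averaged 7.54 ± 0.108 in treated cells and 9.31 ± 0.287 in DMSO cells, a fall of 1.76. BRCA1, which acts in repair by recombination, averaged 7.46 ± 0.160 in treated cells and 8.62 ± 0.266 in DMSO cells. RAD54B, a translocase of recombination, fell by 1.24, the mismatch repair protein MSH6 by 1.02 and RAD50, which binds broken ends, by 1.02. Of the 31 lowered members with a promoter window, 14 (45.2%) held TTCCCGC. So did 17 of the 58 listed repair genes with a window (29.3%), 6.55% of all promoters and 8.98% of tested genes with a window. The 5 that rose were ERCC1, a part of the nuclease of excision repair, by 1.13, the protease SPRTN by 0.57, the end-joining ligase LIG4 by 0.49, the nuclease subunit MUS81 by 0.45 and FANCF by 0.43. SPRTN cleaves proteins that are crosslinked to DNA, and it read 8.02, 8.17, 8.02 and 8.19 in treated cells against 7.31, 7.06, 7.87 and 7.89 in DMSO cells. The SPRTN call was lost without DMSO replicate 2 (0.41, adjusted p = 0.056) and against DMSO replicates 3 and 4 alone (0.22, adjusted p = 0.32). FANCF gave 0.06 on its other probe set (adjusted p = 0.55). ERCC1 rose on 2 of its 3 probe sets and gave -0.28 on the other.

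Other genes were also among the largest falls. CDCA7, a partner of HELLS, averaged 9.94 ± 0.074 in treated cells and 11.54 ± 0.146 in DMSO cells on 1 probe set, while the other gave -0.17. SKP2, the ubiquitin ligase subunit that marks p27 for destruction, fell by 1.47 ± 0.112 and TUBGCP3, a part of the gamma-tubulin complex, by 1.61 ± 0.126. PCDH7, a protocadherin, fell by 1.84 ± 0.104 on the brightest of its 5 probe sets, but the probe sets ran from -1.84 to 2.06 and 3 of the 5 were higher in treated cells.

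Of 42 tested histone genes 15 were higher (35.7%) and 8 lower (19%), beside 20.7% and 18.2% of all genes. The share that fell was thus near that of all genes. At least 2-fold, 8 members rose and 0 fell. H2BC5 read 10.97 and 11.17 with DAC and 10.99 and 11.08 with G668684, against 7.66, 7.92, 8 and 8.01 with DMSO. The linker histone H1-2 averaged 11.06 ± 0.132 in treated cells and 8.06 ± 0.306 in DMSO cells, H2BC9 rose by 2.79, H2BC12 by 2.76 and H2BC6 by 2.36. The H2B genes have near-identical sequences, so which copy carries each rise is uncertain. The largest falls were those of the linker variant H1-10 by 0.78, MACROH2A2 by 0.71 and H2AZ2 by 0.49, and H4C11, a gene of the histone clusters, fell by 0.40. Of the 15 members that rose, 14 (93.3%) held CCAAT in the promoter window, but so did 35 of the 41 listed histone genes with a window (85.4%). When probe sets that can bind several transcripts were left out, 9 of the 28 histone genes still tested were higher, beside 2576 of 14821 genes.

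The machinery of DNA methylation was lower in 13 of 31 cases (41.9%) and higher in 4 (12.9%). DNMT1, the maintenance methyltransferase and the target named in the series' title, read 9.78 and 10.02 with DAC and 9.73 and 10.13 with G668684, against 10.55, 10.52, 10.56 and 10.50 with DMSO, a fall of 0.62 ± 0.076. UHRF1, which brings DNMT1 to newly made DNA, fell by 0.75 ± 0.095 and DNMT3B, a de novo enzyme, by 0.53 ± 0.121. DNMT3A differed by -0.14 (adjusted p = 0.12) and DNMT3L by -0.06 (adjusted p = 0.61). Without G668684 replicate 2 DNMT3A was called, at an adjusted p of 0.047. Among the TET enzymes, which oxidise methylcytosine, TET1 fell by 0.52 ± 0.101, while TET2 differed by 0.07 (adjusted p = 0.73) and TET3 by -0.21 (adjusted p = 0.15). Without DMSO replicate 2 TET3 was called, at an adjusted p of 0.027, and so it was on the mean of its probe sets (adjusted p = 0.0048). EZH2, the methyltransferase of the Polycomb complex, fell by 0.67 and the remodeller ATRX by 0.74. The cytidine deaminase APOBEC3B rose by 1.13 ± 0.110 and the methyl-binding protein MBD1 by 0.84 ± 0.083.

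Genes that handle nucleosides matter for drugs of this class. CDA, cytidine deaminase, which inactivates decitabine, averaged 8.48 ± 0.047 in treated cells and 7.65 ± 0.123 in DMSO cells and rose by 0.83 ± 0.061. DCK, the kinase that activates it, named after its values were seen like the transporter SLC29A1, read 9.65, 9.78, 9.64 and 9.57 in treated cells against 9.62, 9.70, 10.52 and 10.45 in DMSO cells. The treated values of DCK lay at the height of DMSO replicates 1 and 2, and the difference of -0.41 was not called (adjusted p = 0.078). With DMSO replicates 3 and 4 alone it was called, and so it was without DMSO replicate 1 (adjusted p = 0.016) or 2 (adjusted p = 0.027). SLC29A1, a carrier of nucleosides, fell by 0.38, and with DMSO replicates 3 and 4 alone its adjusted p was 0.053. Of the whole list, 25 of 51 members were lower (49.0%) and 11 higher (21.6%). TYMS, thymidylate synthase, fell by 0.76, RRM1, the large subunit of ribonucleotide reductase, by 0.75, the dUTP hydrolase DUT by 0.72 and the deoxycytidylate deaminase DCTD by 0.67. UPP1, uridine phosphorylase, rose by 1.86, the efflux pump ABCG2 by 1.58, the ectonucleotidase NT5E by 1.22 and RRM2B, the p53-induced subunit of the reductase, by 1.15.

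The list of ATF4 and the unfolded protein response had 24 of 58 members lower (41.4%) and 10 higher (17.2%). ATF4 itself, the transcription factor of amino acid stress, read 11.22 and 11.36 with DAC and 11.15 and 11.39 with G668684, against 12.44, 12.40, 12.69 and 12.62 with DMSO. PHGDH, the entry enzyme of serine synthesis, fell by 1.33 ± 0.060, the cystine carrier SLC7A11 by 1.29 ± 0.070 and YARS1, which charges tyrosyl-tRNA, by 0.95 ± 0.050. DDIT4, an inhibitor of mTOR signalling, averaged 9.61 ± 0.085 in treated cells and 11.29 ± 0.224 in DMSO cells. DNAJB9, a chaperone of the endoplasmic reticulum, went up by 1.51 ± 0.075 on all 3 of its probe sets, and DDIT3, another factor of the stress response, by 0.46. YARS1 gave -0.21 on its second probe set.

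Lysosome and autophagy genes were higher in 25 of 50 cases (50%) and lower in 5 (10%), with a median of 0.18. NEU1, the lysosomal sialidase, read 9.35 and 9.53 with DAC and 9.35 and 9.46 with G668684, against 7.78, 7.58, 7.74 and 7.74 with DMSO. The autophagosome proteins MAP1LC3B and GABARAPL1 rose by 1.58 ± 0.057 and 1.22 ± 0.124, WIPI1, which binds the forming membrane, by 1.27 ± 0.094 and the fucosidase FUCA1 by 1.02. MANBA, the lysosomal mannosidase, fell by 0.56. Respiratory chain and proteasome genes moved by less. Of 48 genes of oxidative phosphorylation 24 were higher (50%) and 7 lower, at a median of 0.13, with the largest rise at COXFA4, a subunit linked to cytochrome oxidase, by 0.74 ± 0.098. Of 29 proteasome genes 16 were higher (55.2%) and 4 lower, and the largest rise was that of the ATPase subunit PSMC4 by 0.46 ± 0.050.

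**Figure D3:**
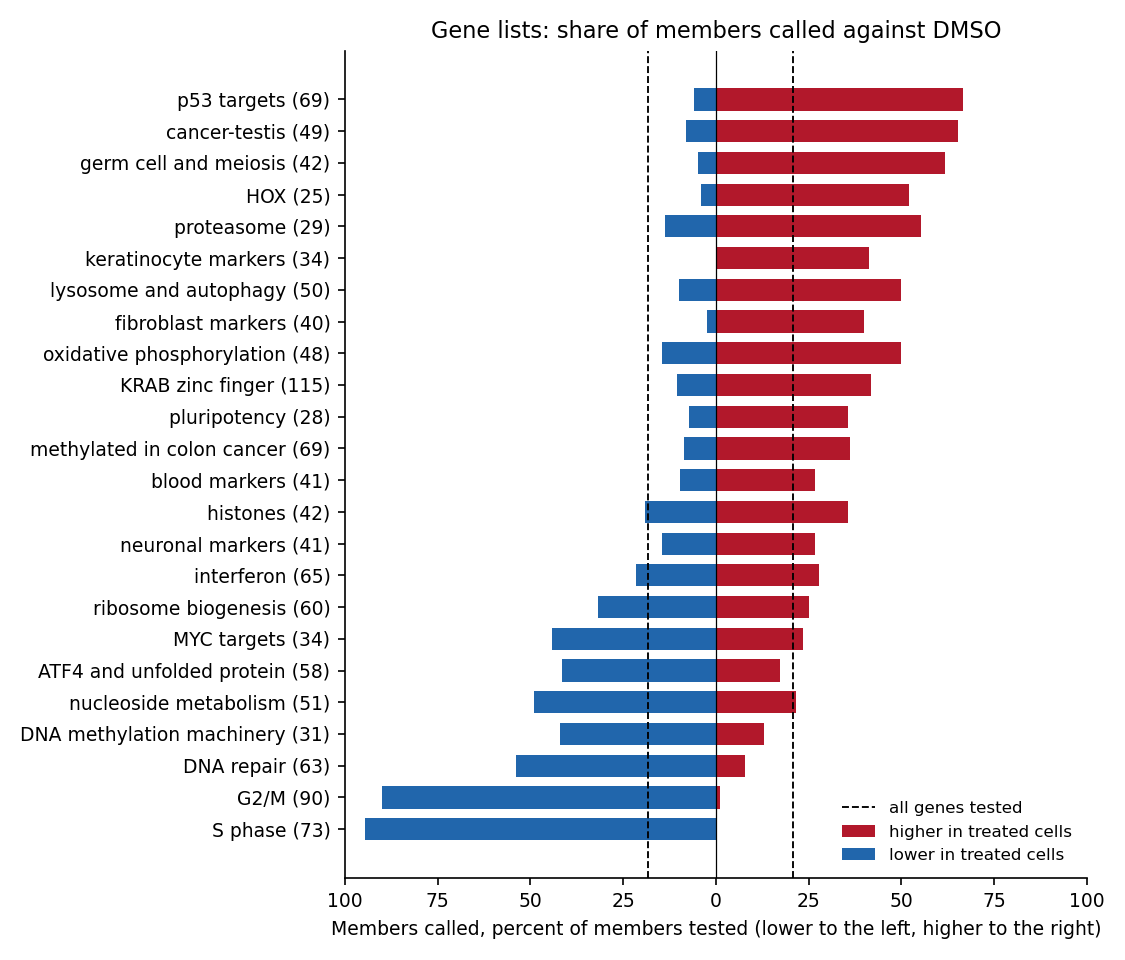
Share of tested members called higher (right) or lower (left) in treated cells than in DMSO cells for 24 gene lists, with the number tested in brackets and dashed lines at the shares of all genes, 20.7% higher and 18.2% lower. The S phase and G2/M lists reach 94.5% and 90.0% lower, and the p53, cancer-testis and germ cell lists 66.7%, 65.3% and 61.9% higher.

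Interferon and RNA-sensing genes showed no common direction, with 18 of 65 members higher (27.7%), 14 lower (21.5%) and a median of 0.00. IRF7, a factor of the interferon response, read 10.16 and 10.40 with DAC and 10.31 and 10.37 with G668684, against 8.43, 7.96, 8.37 and 7.95 with DMSO. IFI27 rose by 1.67 ± 0.132 and the ubiquitin-like ISG15 by 0.88 ± 0.061. The antiviral genes IFIT1 and OAS3 fell by 0.44 and 0.49. KRAB zinc finger genes, a family of repressors known for binding transposons, were higher in 48 of 115 cases (41.7%) and lower in 12 (10.4%). The shares of all genes were 20.7% and 18.2%. Only 115 of the 133 KRAB members with a probe set passed the filter. Of the 48 that rose, 7 averaged under the filter in DMSO cells, so the filter can raise this share. The rises were led by ZNF140, which averaged 6.95 in treated cells and 4.85, under the filter, in DMSO cells. Among hypoxia and glycolysis genes 16 of 37 were higher (43.2%) and 9 lower (24.3%), the second not far from the 18.2% of all genes. The glucose carrier SLC2A3 read 11.10, 11.20, 11.10 and 11.07 in treated cells against 7.96, 7.62, 7.60 and 7.54 in DMSO cells, and SLC2A1 rose by 1.49 ± 0.062. VEGFA, the endothelial growth factor, fell by 0.70 and GPI, a glycolytic isomerase, by 0.65.

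Single genes of other lists also stood out. CBR1, a carbonyl reductase, averaged 8.52 ± 0.078 in treated cells and 5.18 ± 0.133 in DMSO cells, while NQO1, another reductase of the oxidative stress list, fell by 0.64. Of 35 imprinted genes 16 were higher (45.7%) and 4 lower (11.4%), beside 20.7% and 18.2% of all genes. Among them NAP1L5 was up by 1.53 ± 0.098 and PLAGL1 by 1.12 ± 0.184. ULBP2, a ligand that natural killer cells recognise, rose by 1.68 ± 0.068. SQLE, squalene epoxidase of cholesterol synthesis, rose by 1.15 ± 0.065, and SCD, which makes monounsaturated fatty acids, fell by 0.54. KRT20, a keratin of differentiated intestinal epithelium, averaged 8.95 ± 0.107 in treated cells and 5.87 ± 0.094 in DMSO cells, but only 7 of 57 genes of intestinal differentiation were higher (12.3%), and ANXA10, an annexin, fell by 1.39.

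Some markers of other cell types also changed. Of 40 fibroblast and mesenchymal genes, 16 were higher (40.0%) and 1 lower, at a median of 0.05. Their summed level was 310.27 to 311.97 on treated arrays and 287.77 to 290.70 on DMSO arrays. VIM, the intermediate filament vimentin, read 11.16 and 11.16 with DAC and 11.15 and 11.29 with G668684, against 8.01, 8.10, 7.86 and 7.83 with DMSO. CCN2, a secreted matricellular protein, averaged 10.92 ± 0.093 in treated cells and 7.09 ± 0.263 in DMSO cells. ACTA2, smooth muscle actin, rose by 1.93 ± 0.102 on 1 probe set and gave -0.24 on the other. Keratinocyte genes were higher in 14 of 34 cases (41.2%) and lower in 0, with the protease KLK10 up by 1.78 ± 0.065 on 1 of 2 probe sets, the other at 0.00, and the calcium-binding S100A2 up by 1.65 ± 0.058. Their summed level was 248.66 to 249.92 on treated arrays and 235.68 to 239.94 on DMSO arrays. Of 41 blood genes 11 were higher (26.8%) and 4 lower (9.76%), at a median of 0.015. The share higher was not far from the 20.7% of all genes. Summed levels of the blood genes were 281.39 to 283.54 on treated arrays and 269.61 to 276.69 on DMSO arrays. The rises were led by SRGN, the proteoglycan of secretory granules, up by 3.82 from a DMSO level under the filter. PRF1, perforin, rose by 2.40 ± 0.062 and the T cell gene CD3D by 0.81. Of 41 neuronal genes 11 were higher (26.8%) and 6 lower (14.6%), not far from the shares of all genes, with a median of -0.05 and with summed levels of 294.82 to 296.76 on treated arrays and 283.03 to 289.22 on DMSO arrays. Whether a change in the mix of cells had a part in these values was not tested. Among epithelial genes KRT19 rose by 0.86, CDH1 by 0.45 and KRT18 by 0.26, while ESRP1, a splicing regulator of epithelia, fell by 0.97 and the tight junction gene CLDN4 by 0.71.

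DAC and G668684 were given at different doses, so their values are set side by side. Against the same DMSO arrays, 3251 genes were higher (18%) and 2555 lower (14.2%) with DAC, and 3153 higher (17.5%) and 2656 lower (14.7%) with G668684. TKTL1 differed from DMSO by 7.01 with DAC and 7.02 with G668684. DAZL differed by 6.76 with DAC and 6.88 with G668684, and KIF15 by -1.97 with DAC and -2.08 with G668684. The means of the 2 compounds lay a median of 0.05 apart, and 3 genes lay over 0.5 apart. These genes, chosen after their values were seen, were NNAT, an imprinted neuronal gene, with 1.01 for DAC and 0.38 for G668684, STC1, the hormone stanniocalcin, with 0.44 and 1.01, and DZIP1, a ciliary zinc finger protein, with 0.82 and 1.33. With 2 arrays for each compound at unlike doses, these values do not show that the compounds act alike or unlike.

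The higher doses were also set against the lower doses. Between them 4344 genes were called (24.1%), 2542 higher (14.1%) and 1802 lower (9.98%) at the higher doses. Of the p53 targets 42 of 69 were higher at the higher doses, and of the G2/M genes 70 of 90 and of the S phase genes 45 of 73 were lower. Of the cancer-testis genes 8 of 49 were higher and 13 lower. FAS averaged 8.74 in DMSO cells, 8.87 at the lower doses and 10.47 at the higher doses, and the dose difference was 1.60 ± 0.079. With multi-transcript probe sets left out that difference was 0.06 (adjusted p = 0.62). TAC1 averaged 3.67 in DMSO cells, 4.74 at the lower doses and 7.99 at the higher doses. Its DMSO and lower-dose levels were both under the filter of 5, so the size of its dose difference is not settled. TKTL1 was lower at the higher doses, by 0.64 ± 0.128, as was VIM, by 0.55 ± 0.059, while MAGEA4 differed by 0.16 (adjusted p = 0.42), with an SE of 0.132. CTCFL, a testis paralogue of CTCF, averaged 4.92 in DMSO cells, 7.03 at the lower doses and 5.77 at the higher doses. VCX2, a gene of male germ cells on X, averaged 7.05 in DMSO cells, 9.29 at the lower doses and 8.18 at the higher doses.

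**Figure D4:**
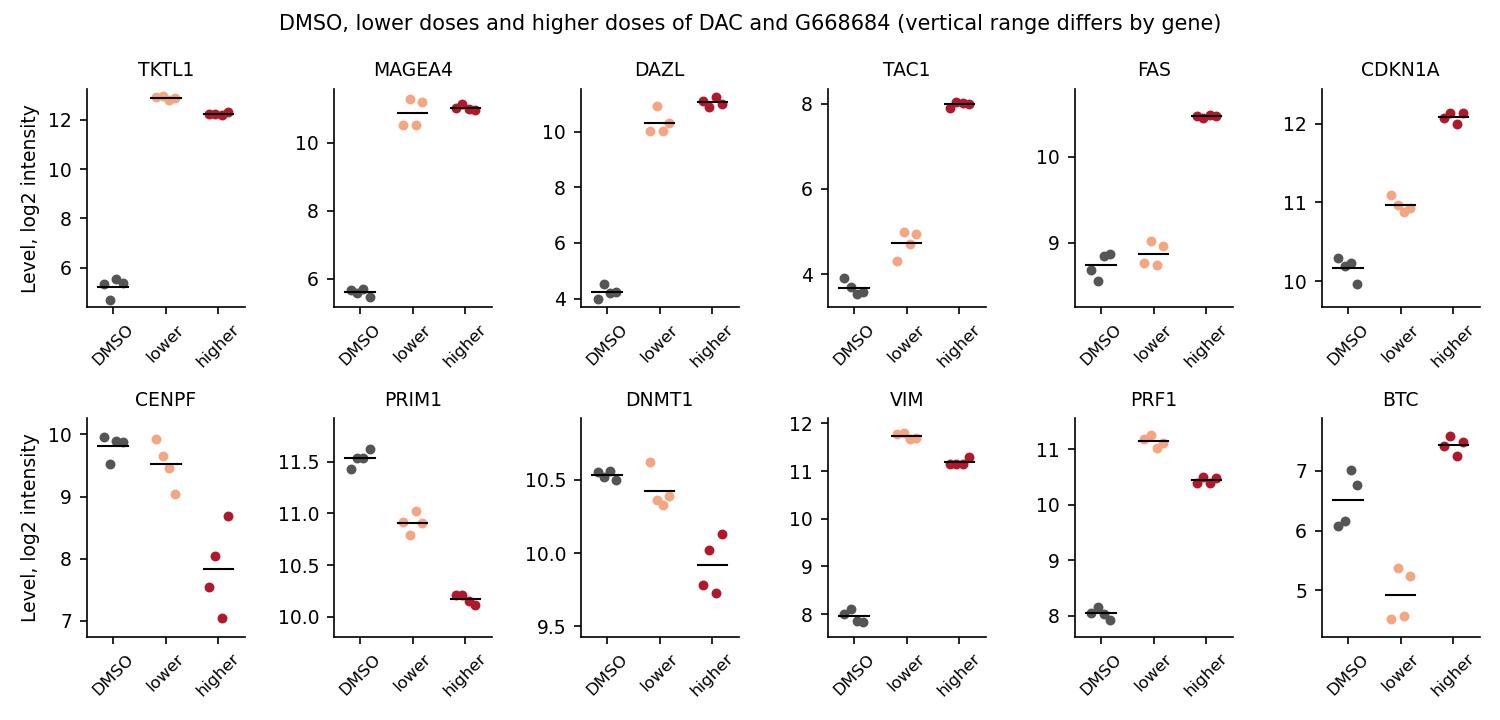
Log2 intensity of 12 genes in DMSO cells, at the lower doses (DAC 120 nM and G668684 150 nM) and at the higher doses (DAC 5 µM and G668684 7 µM), with 4 arrays per group as points and lines at the means. The vertical range differs by gene. TKTL1, VIM and PRF1 stand highest at the lower doses, TAC1 and FAS rise mainly at the higher doses, and BTC is lowest at the lower doses.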

How the data were processed

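RNA of HCT116 cells was hybridised to Affymetrix arrays, and the authors deposited linear intensity values for 54675 probe sets on 24 arrays. Per the submitters' processing notes these came from RMA in Affymetrix Expression Console 1.1. The deposited intensity values were turned to log2. Of the probe sets, 41091 carry 1 gene symbol in the platform annotation, 1801 carry several and 11721 none, and 62 are controls. Only those with 1 symbol were used. Probe sets at a log2 value of 5 or more on at least 2 arrays were kept (35146), and the one with the highest mean stood for its gene, which left 18055 genes.

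limma 3.58.1 (R 4.3.3) fitted a mean for every group to the 24 arrays, with an intensity trend and 13 residual degrees of freedom, and contrasts were adjusted by Benjamini-Hochberg over all genes at 0.05, two-sided. Python 3.11.15 with pandas 2.3.3 served for the tables, and matplotlib 3.10.9 for the figures. The fit was tested on simulated data. Groups followed the sample titles. Replicate numbers did not pair treated with DMSO arrays: deviations of same-numbered arrays correlated at 0.105 for DAC and 0.001 for G668684. DAC and G668684 arrays of the same number correlated at 0.42. The main fit took the 4 treated arrays as independent. Where same-numbered arrays share deviations, its standard errors and p-values for the pooled difference can be too small. The rule for genes named was the 25 raised and 15 lowered genes with the largest changes and arrays that did not overlap, up to 5 called members of each list in each direction, the methylation enzymes and cell markers, and 8 genes in each direction between doses. The text names part of these, and other genes are marked. The members and the 41 gene lists (2091 entries, 1873 with a probe set) were chosen with earlier results of these data known. Alternatives covered the controls used, normalization, filters, probe set choice, the replicate block and each array left out.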

Additional observations from a re-analysis of the deposited data

Results flagged for a closer look

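In 13 of 358 groups searched, those of the genes named, 1 of 4 arrays stood apart from the other 3 of its group by more than Dixon's 95% limit, where chance gives about 1 in 20 groups, so this share is no higher than chance gives. In the called genes among them the gap was smaller than the difference between treated and DMSO cells. 4 treated readings came from G668684 replicate 2: DDX43, an RNA helicase, read 8.41 against 8.17 to 8.21 on the other treated arrays, MSH6 read 9.87 against 9.77 to 9.78, SLC2A1 read 10.62 against 10.84 to 10.86 and VIM read 11.29 against 11.15 to 11.16. From G668684 replicate 1, MAEL read 10.96 against 10.75 to 10.78, TTK read 9.76 against 9.97 to 10 and ACTA2 read 9.30 against 9.63 to 9.69. The DAC arrays gave 3 such values, KCNV2, a potassium channel subunit, with 8.74 on replicate 1 against 8.37 to 8.43, MAGEB6 with 6.26 on replicate 2 against 6.35 to 6.36, and FUCA1 with 10.82 on replicate 2 against 10.72 to 10.73. On the DMSO arrays, H4C11 read 8.78 on replicate 2 against 8.49 to 8.53, FMR1NB read 3.43 on replicate 1 against 3.62 to 3.64, and SOX2 read 7.15 on replicate 4 against 6.84 to 6.89.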

How the results depend on the processing

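Among 471 counts recomputed under 21 alternatives, 464 stayed within 1.5 times the reported count. The other 7 moved when probe sets that can bind several transcripts were left out, which left 14821 genes tested: 15 of 37 ATF4 and unfolded protein genes lower, 9 of 28 histone genes higher, 9 of 25 keratinocyte genes higher, 29 of 94 KRAB genes higher, 14 of 36 lysosome genes higher, 15 of 43 nucleoside genes lower and 13 of 39 oxidative phosphorylation genes higher. Fewer members of these lists were tested there, so a smaller count need not be a smaller share. Of the 14821 genes, 2576 were higher and 2620 lower. Of single-gene values against DMSO, 3642 kept direction and call, 42 lost the call, 15 gained it and 2 reversed: PCDH7 was 0.14 on the mean of its probe sets and UCHL1 -0.12 without such probe sets. FAS, CDKN2D, CDCA7, KLK10, YARS1, FANCF and CENPI lost their calls there too. Of 861 list medians recomputed, 198 moved by more than the spread between replicates, and 19 of 41 lists took the other sign under at least 1 alternative. The S phase median ran from -0.74 to -0.58, G2/M from -0.73 to -0.57, p53 targets from 0.46 to 0.60, cancer-testis from 0.52 to 0.67 and germ cell from 0.74 to 1.21. DMSO replicates 1 and 2 alone gave 4087 higher and 4513 lower genes, and replicates 3 and 4 alone 3679 and 3250. With only the 8 compared arrays fitted and the compounds pooled, 3370 genes were higher and 2822 lower. With each compound as its own group these counts were 3180 and 2541. Replicates 1 and 2 showed little pairing of treated with DMSO arrays. With the replicate number as a block, 4136 genes were higher and 4634 lower against DMSO. Only DMSO had replicates 3 and 4, so against DMSO that fit rested on DMSO replicates 1 and 2 and is no separate check. Between doses the block gave 3090 higher and 2415 lower genes. Leaving out each array gave 3299 to 3848 higher and 2824 to 3545 lower genes, and between doses 1935 to 2896 higher and 1343 to 2274 lower. Precision is limited by 4 arrays a side, and without detection calls a low level cannot be told from background.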

Other observations

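Other gene lists moved less evenly. Of 25 HOX genes, which pattern the body axis, 13 were higher (52%) and 1 lower (4%) in treated cells than in DMSO cells, at a median of 0.20, beside 20.7% higher and 18.2% lower in all genes. Actin cytoskeleton and SRF genes were higher in 19 of 42 cases (45.2%) and lower in 8 (19%). MYC targets were lower in 15 of 34 cases (44.1%) and higher in 8 (23.5%). Ribosome biogenesis genes were lower in 19 of 60 cases (31.7%) and higher in 15 (25%), and Wnt pathway genes lower in 12 of 39 (30.8%) and higher in 6 (15.4%).

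Some genes did not follow the order of the doses. BTC, the growth factor betacellulin, read 6.08, 6.17, 7.02 and 6.77 in DMSO cells, 4.53, 5.37, 4.57 and 5.25 at the lower doses and 7.41, 7.58, 7.25 and 7.49 at the higher doses. The lower doses lay below every DMSO array and the higher doses above every one, and the dose difference was 2.5 ± 0.196 (adjusted p = 1.7e-08). PRF1 averaged 8.05 in DMSO cells, 11.15 at the lower doses and 10.45 at the higher doses.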
